A study of Homo sapiens with 2 samples.

Results

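The H3K9 histone demethylases are enzymes that remove methyl groups from lysine 9 of histone H3. The 10 genes described here are KDM1A, the KDM3 genes KDM3A, KDM3B and JMJD1C, the KDM4 genes KDM4A, KDM4B, KDM4C and KDM4D, and the paired PHF8 and KDM7A. They were taken by exact gene symbol in the platform annotation, and all 10 were found, with 32 of the 54675 probe sets. The brightest probe set of a gene, by the mean of both arrays, stood for it. A gene was compared when its higher value reached 4.59, the median value over the non-control probe sets, called the floor. All 10 were compared, among 12841 of 19775 genes, and all 10 were at or above the floor on both arrays.

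The study measured total RNA of HCT15, an established cell line of a human colorectal adenocarcinoma, grown in RPMI with fetal bovine serum, on 1 Affymetrix array per group. One culture received ARID3B-Cas9, that is Cas9 with an ARID3B guide RNA, and has the genotype label ARID3B knockout, and the other received a control and has the genotype label control. The ARID3B protein binds AT-rich DNA through its ARID domain, and the design asks how transcripts of the edited cells differ from those of the control. The sources used here do not say whether the edited cells were a clone or a pool, or where the guide cuts. A single array in each group allows no test and no replicate error. Values are RMA log2 expression, and a difference is the value on the knockout-labelled array minus that on the control array.

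Methylation of H3 lysine 9 marks silent chromatin. The dimethyl form covers repressed genes and the trimethyl form covers repeats and heterochromatin, where it is read by HP1 proteins. KDM1A is an amine oxidase that uses FAD and removes mono- and dimethyl groups, from lysine 4 in the CoREST complex and from lysine 9 in some nuclear receptor complexes. The other members are JmjC oxygenases, which need iron, oxygen and 2-oxoglutarate. The KDM3 enzymes, PHF8 and KDM7A act on mono- and dimethyl lysine 9, and the KDM4 enzymes on di- and trimethyl lysine 9. KDM4C has been described as a partner that ARID3B brings to stem cell genes, which is the link of this enzyme family to the edited gene.

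The transcript of the targeted gene itself was not lower on the knockout-labelled array. ARID3B stood at 6.09 there and at 5.12 on the control, and its single probe set thus differed by 0.97. Its paralogue ARID3A stood at 5.91 and 5.67, with probe sets that differed in direction. The label of the edited array was therefore not borne out by the transcript. The position of the probe set relative to the cut is not known here, so the transcript does not settle the label. The cause of the higher value was not tested. Every direction below rests on the knockout label. Epithelial markers were present on both arrays, with EPCAM at 12.2 and 12.2 and KRT18 at 12.4 and 12.3, and KRT20 was under the floor on both. CDX2, a transcription factor of the intestine, stood at 6.91 and 6.27. The adhesion protein CDH1 stood at 10.7 and 11.1, a difference of -0.45 with its other probe set lower as well, and the microvillus protein VIL1 stood at 5.45 and 5.66. Of 11 markers of leukocytes, fibroblasts and endothelium, 10 were measured and 5 reached the floor, while PTPRC, COL3A1 and CDH5 were under it on both arrays. Among the 5 that reached the floor, COL1A1 stood at 7.12 and 6.87, CD14 at 6.54 and 6.51 and PECAM1 at 5.73 and 5.55. CD3E stood at 4.87 and 4.71, and DCN, under the floor on the control, at 4.61 and 4.51. These 5 differed by 0.03 to 0.25 in their brightest probe sets, but another probe set of COL1A1 differed by -2.47. Their part in the results was not tested.

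The demethylases were mostly higher on the knockout-labelled array, by small amounts. Of the 10 genes 9 lay above 0, as did 52.9% of all compared genes, or 6 against 43.9% when scaled on ribosomal protein genes. With the second brightest probe set, or the only one in the case of KDM1A, 3 of 7 compared members lay above 0, against 51.0% of all compared genes. The median was then -0.0055, and KDM3A, KDM4D and PHF8 were not compared. By the mean of the probe sets 7 of 10 lay above 0, against 51.9%, and the median was 0.17. This mean includes the 11 member probe sets that were under the floor on both arrays. Of the 21 member probe sets above the floor 14 were higher, against 51.0% of all such probe sets, 1 was equal and 6 were lower. The direction thus varied with the choice of probe set. In the brightest probe sets, the median difference was 0.24, against 0.04 over all compared genes. At 1.5-fold or more, 2 members were higher, KDM3A and KDM1A, against 5.83% of all compared genes. No member was lower by that much, against 10.5% of all compared genes. KDM3A alone was 2-fold higher, against 1.05%, and no member was 2-fold lower, against 3.79%. The spread among genes of similar expression, a scaled median absolute deviation in 10 bins, ran from 0.255 to 0.437. Higher by more than this spread were 5 members (KDM3A, KDM1A, KDM4C, KDM4D and KDM4A), against 16.4% of all compared genes. None was lower by more than it, against 18.4%. Without KDM3A the median of the other members was 0.17.

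**Figure D1:**
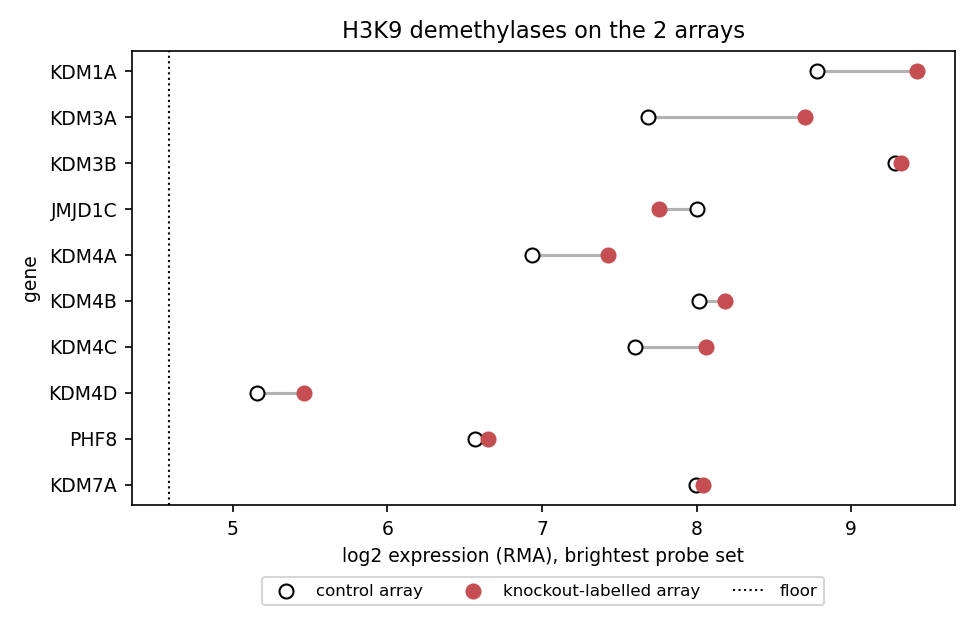
RMA log2 expression of the 10 H3K9 demethylases, each by its brightest probe set, on the control array (open circles) and the knockout-labelled array (filled circles), with the floor of 4.59 as a dotted line. The distance between the circles is widest for KDM3A (1.02) and KDM1A (0.65), JMJD1C is the only gene with the control value on the right, and levels of different genes are not comparable because probe sets differ in brightness.

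KDM1A, also called LSD1, is the one member outside the JmjC class. It stood at 9.43 on the knockout-labelled array against 8.78 on the control, a difference of 0.65 or 1.57-fold. The spread at its expression level was 0.366, and 4.36% of all compared genes had a larger difference. A single probe set measures it, one marked as able to match several transcripts, so that no other probe set checks the value.

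The 3 genes of the KDM3 family ranged from -0.24 to 1.02. KDM3A, a demethylase known as a target of the hypoxia-inducible factor HIF, stood at 8.70 on the knockout-labelled array against 7.69 on the control, a difference of 1.02 or 2.02-fold. The spread at this level was 0.388, and 0.997% of all compared genes had a larger difference. Its other probe set, at 2.10 and 2.04, was under the floor on both arrays and gives no check. The brighter one is marked as able to match several transcripts. KDM3B, a close relative that sits in the region of chromosome 5 often lost in myeloid leukaemia, stood at 9.32 and 9.28, a difference of 0.04, and its other probe set differed by -0.01. The values of KDM3B thus lay well inside the spread of 0.366 in both probe sets. JMJD1C, a large protein that also binds nuclear receptors, stood at 7.76 on the knockout-labelled array against 8.0 on the control, a difference of -0.24. Its other probe sets above the floor differed by -0.50 and -0.38, so that all 3 were lower and lay within 0.266 of each other. That value is the scaled median absolute deviation, over 6297 genes, of the gap between the differences of the 2 brightest probe sets above the floor. A further 3 probe sets of JMJD1C were under the floor on both arrays. JMJD1C was the member with the lowest difference, less than the spread of 0.388 in its brightest probe set, and it was above 0 (0.94) when the arrays were scaled on the spike-ins described further on.

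**Figure D2:**
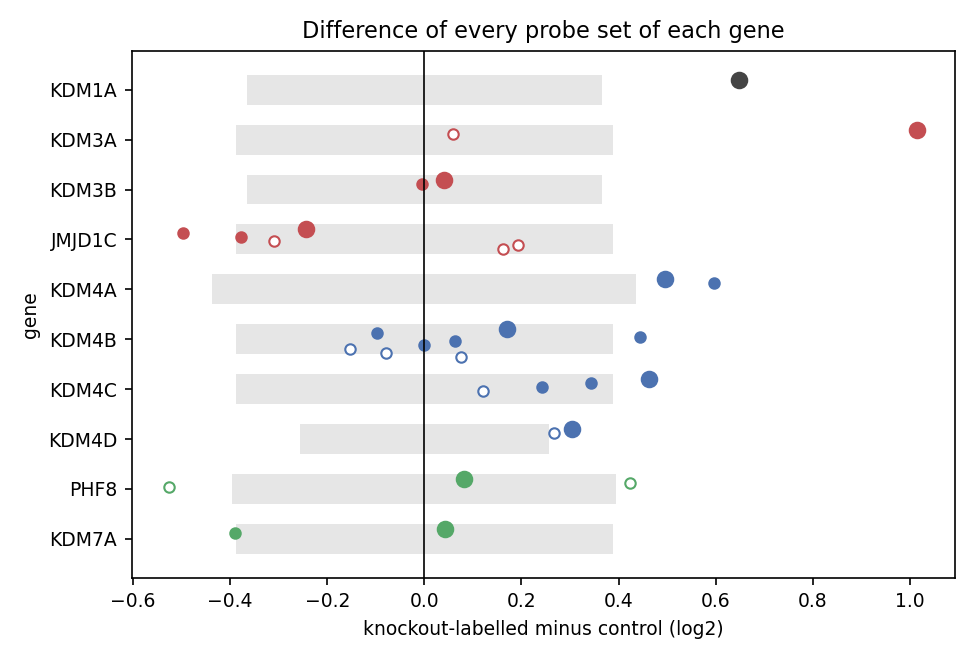
Difference (knockout-labelled minus control, log2) of all 32 probe sets of the 10 genes, with the brightest probe set of a gene as the large point, probe sets under the floor on both arrays as open points, and the spread among genes of similar expression as a grey bar on either side of 0. The filled points of KDM4A and KDM4C all lie to the right of 0, those of JMJD1C all lie to the left, and those of KDM4B and KDM7A lie on both sides.

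The 4 KDM4 genes were all above 0 in their brightest probe sets, against 52.9% of all compared genes. Their differences ran from 0.17 to 0.50, with a median of 0.38. Of their 11 probe sets above the floor 9 were higher, against 51.0% of all probe sets above the floor. Of the other KDM4 probe sets above it, 1 was equal on both arrays and 1 was lower. KDM4A, which removes trimethyl marks from lysines 9 and 36 and carries reader domains for methylated histones, stood at 7.43 on the knockout-labelled array against 6.93 on the control. That is a difference of 0.50, and its other probe set, at 7.04 and 6.44, differed by 0.60. KDM4C, the family member described with ARID3B, stood at 8.06 and 7.60, a difference of 0.46 or 1.38-fold. Its 2 other probe sets above the floor stood at 6.38 and 6.04 and at 5.95 and 5.71, with differences of 0.34 and 0.24. The probe sets of KDM4A and of KDM4C were thus each higher on the knockout-labelled array, and the brightest of each exceeded the spread, which was 0.437 for KDM4A and 0.388 for KDM4C. Neither gene reached 1.5-fold in its brightest probe set.

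KDM4B, an enzyme that estrogen receptor and HIF are known to induce, gave no single direction. Its brightest probe set stood at 8.19 on the knockout-labelled array against 8.02 on the control, a difference of 0.17. The 4 others above the floor differed by 0.44, 0.06, 0.00 and -0.10. The probe set at 0.00 held the same value, 4.95, on both arrays to every deposited digit, as did 3678 of all 54613 non-control probe sets (6.73%), of which 636 were at or above the floor. The cause of these equal values was not tested. KDM4D, a shorter enzyme without the reader domains of the other KDM4 proteins and known mainly from testis, was the member closest to the floor. It stood at 5.46 and 5.16, a difference of 0.30 against a spread of 0.257, and its other probe set, under the floor on both arrays, differed by 0.27.

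PHF8 and KDM7A, whose PHD finger binds trimethylated lysine 4, were nearly level. PHF8, mutated in X-linked intellectual disability, stood at 6.65 on the knockout-labelled array against 6.57 on the control, a difference of 0.08 in the 1 probe set above the floor. KDM7A stood at 8.04 and 8.0, a difference of 0.04, but its other probe set, at 6.30 and 6.69, differed by -0.39. The probe sets of KDM7A therefore disagreed in direction, and their gap was larger than the deviation of 0.266 given for JMJD1C. KDM7A-DT, the non-coding transcript divergent from KDM7A, stood at 5.25 and 5.90, a difference of -0.65. When the arrays were scaled on ribosomal protein genes, which lowered all differences by 0.09, the small values of KDM3B, PHF8 and KDM7A lay below 0.

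**Figure D3:**
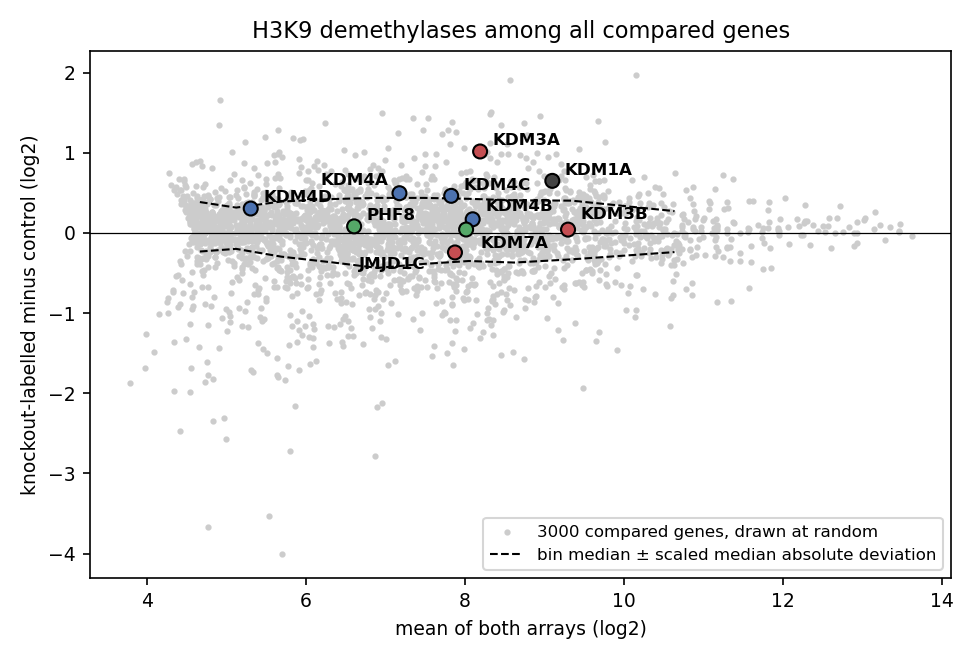
Difference (knockout-labelled minus control, log2) against the mean of both arrays (log2) for the 10 demethylases, coloured by family, and for 3000 of the 12841 compared genes drawn at random (grey). Dashed lines give the bin median plus and minus the scaled median absolute deviation of the 10 expression bins. KDM3A and KDM1A lie above the upper line, KDM4A, KDM4C and KDM4D lie close to it, and the other 5 lie between the lines.

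The promoters of the 5 members that were higher by more than the spread are shown because KDM3A is a HIF target and because ARID3B binds AT-rich DNA, so that their letters bear on which known motifs the windows hold. Each runs from 250 bases before to 50 after an annotated start in RefSeq (GRCh38.p14), 5′ to 3′ on the gene's strand. Those shown lie on the plus strand, at chr2:86441121-86441420 for KDM3A, chr1:23019218-23019517 for KDM1A, chr1:43649899-43650198 for KDM4A, chr9:6757723-6758022 for KDM4C, chr11:94973459-94973758 for KDM4D and chr5:138352435-138352734 for KDM3B, the level relative of KDM3A. Capitals mark the core of the hypoxia response element, ACGTG or GCGTG, on either strand.
KDM3A: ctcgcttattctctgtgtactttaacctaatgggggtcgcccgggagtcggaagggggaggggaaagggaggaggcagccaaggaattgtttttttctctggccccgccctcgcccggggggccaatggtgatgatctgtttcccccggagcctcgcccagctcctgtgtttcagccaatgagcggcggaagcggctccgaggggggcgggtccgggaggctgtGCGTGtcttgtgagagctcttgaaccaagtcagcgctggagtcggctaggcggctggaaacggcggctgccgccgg
KDM1A: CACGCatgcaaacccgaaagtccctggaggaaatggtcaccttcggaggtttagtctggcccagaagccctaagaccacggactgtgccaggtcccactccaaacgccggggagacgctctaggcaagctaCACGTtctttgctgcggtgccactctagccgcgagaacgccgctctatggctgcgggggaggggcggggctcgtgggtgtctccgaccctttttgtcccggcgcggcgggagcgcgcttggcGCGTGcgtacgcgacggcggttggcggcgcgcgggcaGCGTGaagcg
KDM4A: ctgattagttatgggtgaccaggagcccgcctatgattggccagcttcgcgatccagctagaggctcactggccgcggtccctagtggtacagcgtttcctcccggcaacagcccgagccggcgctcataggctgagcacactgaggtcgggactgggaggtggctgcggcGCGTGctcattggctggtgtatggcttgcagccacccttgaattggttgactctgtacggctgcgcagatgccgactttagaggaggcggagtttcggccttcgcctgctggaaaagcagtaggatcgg
KDM4C: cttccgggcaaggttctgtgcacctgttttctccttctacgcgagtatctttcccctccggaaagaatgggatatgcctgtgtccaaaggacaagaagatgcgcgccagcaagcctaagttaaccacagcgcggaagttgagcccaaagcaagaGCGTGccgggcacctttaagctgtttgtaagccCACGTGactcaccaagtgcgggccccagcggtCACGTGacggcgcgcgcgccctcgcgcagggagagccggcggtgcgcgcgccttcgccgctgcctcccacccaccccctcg
KDM4D: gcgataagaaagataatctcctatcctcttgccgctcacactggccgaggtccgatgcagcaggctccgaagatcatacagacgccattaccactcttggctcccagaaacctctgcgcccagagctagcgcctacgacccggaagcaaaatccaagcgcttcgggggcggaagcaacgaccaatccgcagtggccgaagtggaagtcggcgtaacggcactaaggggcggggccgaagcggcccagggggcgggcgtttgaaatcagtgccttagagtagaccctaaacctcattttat
KDM3B: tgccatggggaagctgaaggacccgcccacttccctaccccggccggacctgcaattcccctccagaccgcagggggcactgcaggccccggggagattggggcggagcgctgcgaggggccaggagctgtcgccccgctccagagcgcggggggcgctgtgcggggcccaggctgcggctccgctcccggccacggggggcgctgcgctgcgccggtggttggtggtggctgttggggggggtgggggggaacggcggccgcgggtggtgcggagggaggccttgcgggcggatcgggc

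The 10 genes had 15 annotated starts, with 2 for KDM3A, 3 for JMJD1C and 3 for PHF8. ACGTG, searched on both strands, was found at 5 of the 15 starts (33.3%), against 21.4% of all 35116 promoter windows. The 5 genes were KDM1A, JMJD1C, KDM4B, KDM4C and KDM7A. KDM4C held 2 such sites, both within CACGTG, the palindrome also bound by MYC and related factors, and JMJD1C and KDM4B held 1 CACGTG each. GCGTG was found at 7 starts (46.7%), against 36.5% of all windows, in KDM1A, KDM3A, KDM4A, KDM4B, KDM4C and KDM7A. KDM3A held no ACGTG in either window. Its 2 windows overlap, with starts 90 bases apart, and hold the same GCGTG, which is thus counted at 2 of the 7 starts. KDM4D, one of the higher members, held neither, and nor did KDM3B. ATTAA, an AT-rich core of the kind ARID3 proteins bind, was found at none of the 15 starts on either strand, against 24.4% of all windows. The GC share of the member windows ran from 44% at a start of PHF8 to 77% for KDM3B and KDM7A. A comparison with windows of like GC share was not made. A match here is a description of letters, and the members with a match included the lowest one, JMJD1C, as well as higher ones.

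Other histone demethylases were compared from a list. Among 10 enzymes that act on other histone lysines, 9 lay above 0, against 52.9% of all compared genes, with a median of 0.28. By 1.5-fold or more 1 was higher, against 5.83%, and 1 was lower, against 10.5%. KDM1B, the lysine 4 demethylase related to KDM1A, stood at 5.90 and 4.94, a difference of 0.96. RIOX1, a nucleolar oxygenase, stood at 7.09 and 7.81, a difference of -0.72. As the mean of all probe sets the median of this list was 0.06, and with the second brightest probe set it was 0.01. Of 3 measured enzymes also reported to act on lysine 9 but not among the 10, PHF2 differed by 0.48 and the corepressor HR by -0.29. RIOX2 differed by -0.94, lower in every probe set above the floor.

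Writers of the mark lay on both sides of 0. Of 12 compared H3K9 methyltransferases and cofactors, 6 lay above 0, against 52.9% of all compared genes, and 6 below, with a median of 0.03. None was 1.5-fold higher, against 5.83% of all compared genes, and 4 were lower, against 10.5%. The median was -0.14 with the mean of the probe sets and 0.13 with the second brightest. SUV39H2, which places the trimethyl mark, stood at 7.85 on the knockout-labelled array against 8.88 on the control, a difference of -1.03, and its other probe set differed by -1.39. Its paralogue SUV39H1, at 7.47 and 7.13, differed by 0.34 and SETDB1 by 0.40, while the dimethyl writers EHMT1 and EHMT2 differed by -0.11 and 0.22. MECOM, a zinc finger protein of the PRDM family, did not reach the floor on the knockout-labelled array, at 4.06 against 6.98, and with the floor in place of that value was at least 5.26-fold lower. The other lower ones, ATF7IP2 (-1.19) and PRDM2 (-0.80), had probe sets that differed in direction.

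Readers of the mark were more often below 0 than above. Of 15 readers and heterochromatin proteins 5 were above 0, against 52.9% of all compared genes, and 10 below, with a median of -0.08. The median was 0.09 once multi-match probe sets, those that may detect several transcripts, were left out, and -0.22 with the mean of the probe sets. At 1.5-fold or more 2 were lower, against 10.5% of all compared genes, and none was higher, against 5.83%. The 2 lower ones were HMGN5 (-0.87), a nucleosome-binding protein, and UHRF1 (-0.70), which couples lysine 9 methylation to DNA methylation. The HP1 genes CBX1, CBX3 and CBX5 differed by -0.04, -0.08 and -0.33.

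Partners of KDM1A, many of them in the CoREST complex, also lay on both sides of 0. Of 14 compared, 8 lay above 0, a share close to the 52.9% of all compared genes, and 3 were 1.5-fold higher, against 5.83%. The median was 0.15, but 0.05 without multi-match probe sets, 0.07 with the mean of the probe sets and 0.06 with 64 linear units added. These were PHF21A (0.67), the reader of unmethylated lysine 4, HMG20B (0.66), and the zinc finger protein ZMYM2 (0.61). All of their probe sets above the floor were higher. The scaffold RCOR1 differed by -0.02, and the deacetylases HDAC1 and HDAC2, at 10.8 and 11.2 and at 10.4 and 10.7, differed by -0.42 and -0.36.

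Other enzymes of the oxygenase class and the metabolism of their cofactors were compared next. Of 15 compared 2-oxoglutarate oxygenases 8 lay above 0, a share close to the 52.9% of all compared genes, with a median of 0.11. The collagen hydroxylase P4HA1 (0.59) was 1.5-fold higher, against 5.83% of all compared genes. The DNA demethylase TET3 (-1.03) and the HIF hydroxylase EGLN3 (-0.67) were 1.5-fold lower, against 10.5%. Of 17 compared genes that make or use 2-oxoglutarate or FAD, 10 lay above 0, against 52.9%, with a median of 0.09. GOT1 (0.68) and GLUD1 (0.65), which interconvert 2-oxoglutarate and glutamate, were 1.5-fold higher, against 5.83%. None of the 17 was 1.5-fold lower, against 10.5%. IDH1, which makes 2-oxoglutarate in the cytosol, stood at 10.3 and 10.8, a difference of -0.57.

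HIF target genes, to which KDM3A belongs, were mostly higher. Of 16 compared HIF target genes, counted without KDM3A, 14 lay above 0, against 52.9% of all compared genes. HK2, counted above 0 at 0.23, had probe sets that differed in direction, the lowest at -1.58. Of these 16, 7 were 1.5-fold higher, against 5.83%, and 1 was lower, against 10.5%. The median was 0.41, but 0.21 with the mean of the probe sets, 0.27 with 64 linear units added and 0.54 without multi-match probe sets. NDRG1 (2.35), VEGFA (1.39), the MYC antagonist MXI1 (0.999) and the glycolytic enzyme ENO2 (0.90) differed most. PFKFB3, a regulator of glycolysis, was lower (-0.71), the glucose transporter SLC2A1 stood at -0.58, and the lactate dehydrogenase LDHA differed by 0.03. EGLN3, itself a known HIF target, was lower as given above.

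**Figure D4:**
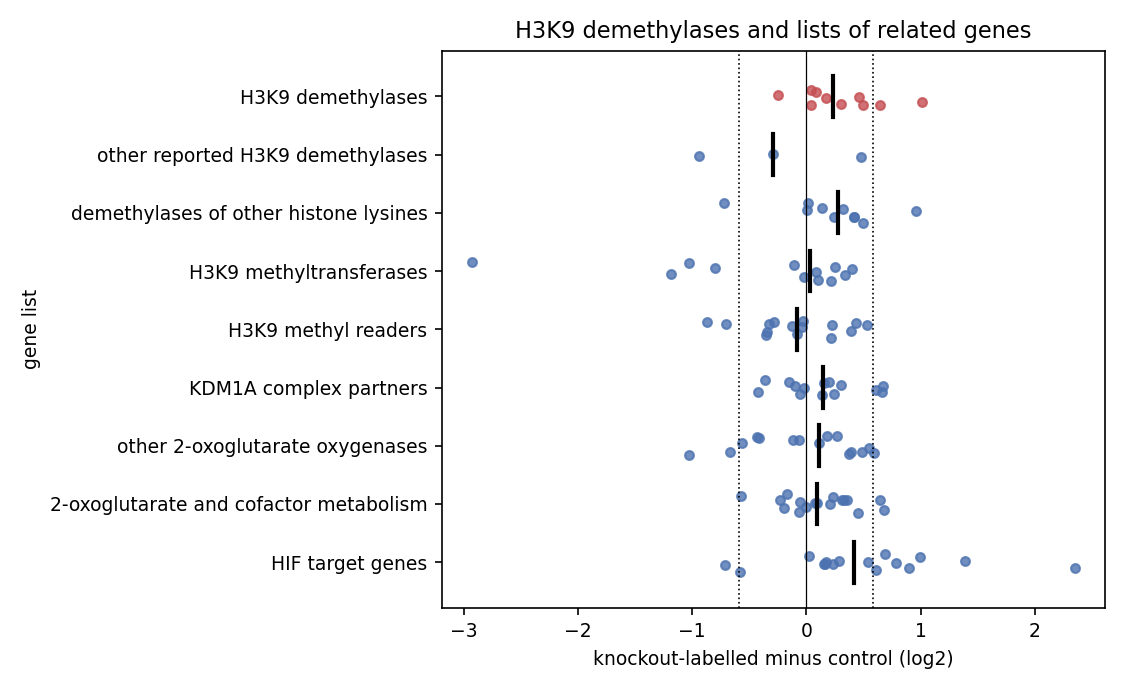
Difference (knockout-labelled minus control, log2) of each compared gene in the H3K9 demethylases (red) and in 8 lists of related genes (blue), with the list median as a black bar and 1.5-fold as dotted lines. The medians run from -0.29 for the 3 other reported H3K9 demethylases to 0.41 for HIF targets, and the demethylases stand at 0.24.

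These differences are relative to the other genes of an array, since RMA sets the arrays to one distribution. Over all compared genes 749 were 1.5-fold higher and 1349 lower. Scaled on ribosomal protein genes these counts were 521 and 1641. Poly-A spike-ins are bacterial transcripts that are usually added to the RNA before labelling, and their 24 probe sets had a mean difference of -1.19. Scaling on them was added with the data in view. It raised every difference by that amount, those of the related lists included, put 11548 genes 1.5-fold higher and 97 lower, and placed all 10 demethylases at least 1.5-fold higher.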

How the data were processed

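Total RNA of 2 HCT15 cultures was measured on 1 array each. The submitters' processing notes name RMA, without a version, as the tool with which the authors made the deposited log2 values. It subtracts background, quantile normalises and summarises probe sets on the log2 scale, so a difference is relative to other genes, and dim differences are compressed. Of 54613 non-control probe sets, 41091 had 1 gene symbol, 1801 several and 11721 none. Symbols were checked by Entrez identifier against RefSeq (GRCh38.p14), and none changed. The arrays correlated at r = 0.966 across compared genes, which are not replicates. The number of arrays limits the precision.

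Differences, medians and spreads were computed in Python 3.11.15 with pandas 2.3.3, and the procedure was tested on simulated data. The members and gene lists were chosen with earlier results of these data known. Genes named from a list were at most the 4 largest of those 1.5-fold different whose probe sets above the floor agreed in direction. Others were named after their values were seen. A gene under the floor on 1 array has a bound, its brighter value against the floor. The alternatives tried were leaving out the floor, raising it to the 75th percentile, other choices of probe set, a loess trend removed (span 0.3), other scalings, a 2-fold threshold and 64 linear units added.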

Additional observations from a re-analysis of the deposited data

How the results depend on the processing

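The median of the demethylases (0.24) was 0.13 with 64 linear units added to both arrays, -0.0055 with the second brightest probe set of each gene and 1.42 with scaling on the poly-A spike-ins. With the second brightest probe set only 7 members were compared and 3 lay above 0, against 51.0% of all compared genes. KDM3A was not compared because its second brightest probe set is under the floor. The count of members 1.5-fold higher was 2, against 5.83% of all compared genes. Percentages in brackets below give that share in each setting. The count was 1 with the mean of the probe sets (4.31%), without multi-match probe sets (6.16%) and with ribosomal scaling (4.06%). It was also 1 with the 2-fold threshold (1.05%) and with 64 units added (2.33%), and 10 with spike-in scaling (89.9%). The 1 member was KDM4A without multi-match probe sets, where KDM1A, KDM3A and KDM3B have none left, KDM1A with the mean of the probe sets, and KDM3A in the other cases. The count was 2 with no floor (4.27%), the higher floor (6.97%), the loess trend removed (5.25%) and centred arrays (6.89%). It was also 2 in the setting of the second brightest probe set (6.14%), KDM4A by that probe set and KDM1A by its only one. By the mean of its probe sets KDM3A differed by 0.54, a mean that includes its probe set under the floor, which differed by 0.06. Over all genes the 1.5-fold counts of 749 higher and 1349 lower were 495 and 1014 with the mean of the probe sets and 299 and 597 with 64 units added. At 2-fold they were 135 and 487. The cause of these shifts was not tested. No paired analysis was possible because each group has 1 array, and no replicate could be left out. Dim probe sets limit the check of KDM3A, KDM4D and PHF8, whose other probe sets were under the floor.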
